A study of Mus musculus with 26 samples.

Results

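The normal difference in gene expression between entorhinal cortex and hippocampus was described from the 10 non-transgenic arrays of a study of 26 Affymetrix mouse arrays, 5 of each region. They were chosen by their labels alone, as every array from non-transgenic animals, and no measured value entered the choice. The study as a whole examined aged mice with an amyloid precursor protein (APP) transgene, or without it, after the growth factor BDNF (brain-derived neurotrophic factor) had been delivered to the entorhinal cortex by lentivirus. Total RNA was taken from dissected, frozen tissue 4 weeks after infection.

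In each region, 2 non-transgenic arrays came from animals given a lentivirus with green fluorescent protein (GFP) and 3 from animals with a sham lesion. All 10 came from wild-type mice that the labels describe as aged, without stating an age, strain or sex. The site of the GFP vector is not stated apart from that of the BDNF vector. The remaining 16 arrays, 8 per region, came from APP transgenic animals given BDNF (4) or GFP (4), and were used only to measure the same regional difference in other samples. The labels call the replicates biological, but they do not say which arrays of different regions, if any, came from 1 animal. Arrays are named here by region, treatment and replicate number.

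The entorhinal cortex is the main gateway between the neocortex and the hippocampus. Cells of its superficial layers project to the dentate gyrus and to the CA fields through the perforant path, and the deep layers receive the return projection from CA1 and the subiculum. The hippocampus proper is built from dentate granule cells, whose mossy fibres contact CA3 pyramidal cells, and from the CA3, CA2 and CA1 pyramidal fields. Each of these cell classes carries its own transcription factors, channels and adhesion molecules, and the white matter and the membranes around each region add further cell types. In bulk tissue of this kind, fewer cells of a type and less RNA per cell cannot be told apart.

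Values are log2 expression values of a probe set, and a difference is entorhinal minus hippocampal, so that a positive number is higher in entorhinal cortex. One unit is a 2-fold difference. Errors of differences are moderated standard errors (SE, n = 5 and 5), and a gene was called where the adjusted p of limma, a linear model fitted to all genes together, was under 0.05. The 10 arrays had log2 values between 2.19 and 13.96 and medians between 5.55 and 5.57. Arrays of 1 region correlated at 0.989 to 0.997 over all probe sets and arrays of different regions at 0.978 to 0.988, so no array lay closer to the other region than to its own. The number of arrays limits the precision of every value. Some arrays stood apart in cell types other than neurons. Means over genes of the major histocompatibility complex (MHC) were 9.85 on entorhinal GFP 1 and 9.97 and 8.79 on hippocampal GFP 1 and 2, against 6.98 to 7.60 on the other 7 arrays. Choroid plexus genes averaged 8.37 on hippocampal sham 1 and 5.89 to 6.17 on the other 4 hippocampal arrays. Entorhinal GFP 2 had a mean of 7.05 over myelin genes, against 7.58 to 8.11 on the other 4 entorhinal arrays.

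Of 14938 genes tested, 5952 (39.8%) differed between the regions, 2292 (15.3%) higher in entorhinal cortex and 3660 (24.5%) higher in hippocampus. Most of these differences were small: the median size over called genes was 0.35 on the log2 scale. A difference of at least 2-fold was found for 461 genes (3.09%), divided almost evenly into 229 higher in entorhinal cortex (1.53%) and 232 higher in hippocampus (1.55%). Differences of at least 4-fold were found for 28 and 35 genes. The 5 arrays of one region did not overlap the 5 of the other for 4153 genes (27.8%), 1558 with entorhinal cortex above (10.4%) and 2595 with hippocampus above (17.4%), and for 451 of the 461. The median over all genes tested was −0.04. At the other end, 12094 genes (81%) had a 95% interval of the difference that lay within 1.5-fold in either direction.

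**Figure D1:**
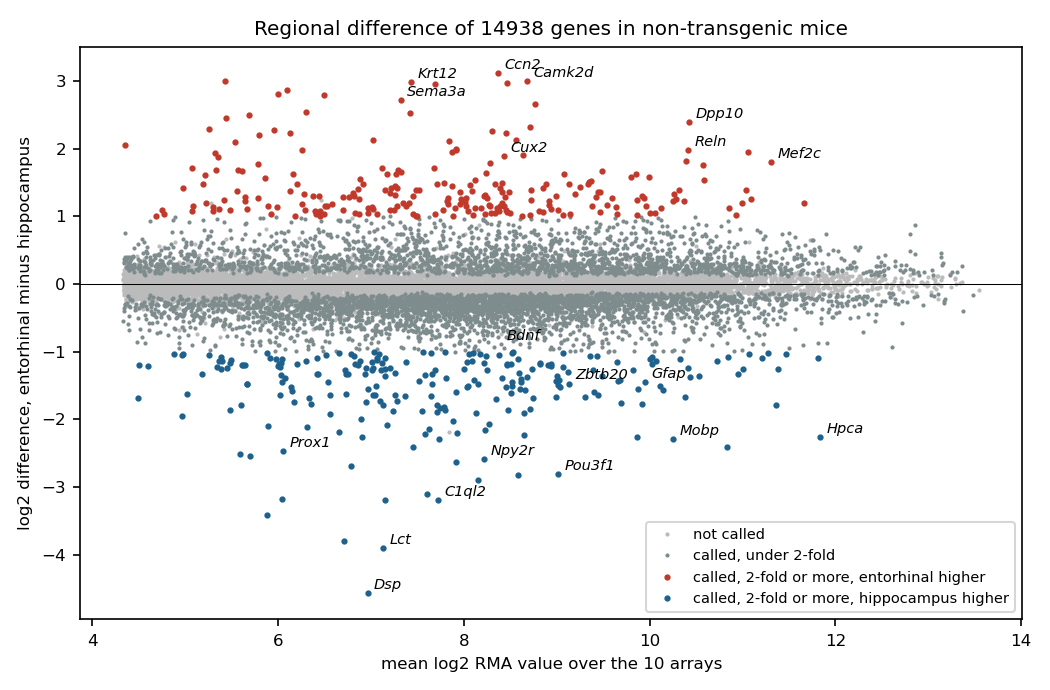
Each point is 1 of the 14938 genes tested, with its mean log2 value over the 10 arrays on the horizontal axis and its log2 difference, entorhinal minus hippocampus, on the vertical axis. Genes called and at least 2-fold different are coloured (229 red, higher in entorhinal cortex; 232 blue, higher in hippocampus), and they run from Ccn2 at 3.12 to Dsp at −4.57.

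The largest differences in either direction were higher in hippocampus, and several belonged to genes of the dentate gyrus. Dsp, which encodes the desmosomal protein desmoplakin and marks dentate granule cells, read 4.46 and 4.35 on the GFP and 5.22, 5.31 and 4.08 on the sham entorhinal arrays. On the hippocampal arrays it read 9.61 and 9.20 with GFP and 9.40, 9.16 and 8.89 with sham. The lowest hippocampal array lay more than 3 units above the highest entorhinal array, and the difference was −4.57 ± 0.24 (adjusted p = 7.83e-07). The entorhinal readings lay below the median of every array and were not shown to be above background, so no exact fold is given. Pkp2, whose product plakophilin 2 is a desmosomal partner of desmoplakin, was also among the 12 largest (−2.89 ± 0.19), although its 3 probe sets ranged from −2.89 to −0.38. Lct, the gene of the digestive enzyme lactase, read 5.0, 5.41, 5.06, 5.49 and 4.92 in entorhinal cortex and 9.33, 8.58, 9.64, 9.05 and 8.81 in hippocampus (−3.91 ± 0.20, adjusted p = 5.95e-07). Its groups were likewise far apart, and its entorhinal readings also lay below the median of every array.

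The other hippocampal genes of this rank had varied roles. They included the zinc finger transcription factor St18 (−3.80 ± 0.21), the tryptophan-degrading enzyme gene Tdo2 (−3.41 ± 0.16) and the protease inhibitor gene Spink8 (−3.19 ± 0.21). The secreted synaptic protein gene C1ql2 (−3.19 ± 0.18), the LIM homeobox gene Lhx9 (−3.17 ± 0.12) and the secreted protein gene Ccbe1 (−3.10 ± 0.08) followed. Shisa6, an auxiliary subunit of AMPA receptors, the POU factor Pou3f1 and Il16 completed the 12 at −2.82 ± 0.13, −2.81 ± 0.24 and −2.69 ± 0.20. For all 12 the arrays of the regions did not overlap. The entorhinal readings of St18, from 3.94 to 5.15, lay below the median of every array. Several of these genes had further probe sets with smaller differences: the other probe set of Tdo2 read −0.80, the 4 of Lhx9 ranged from −3.22 to −0.64, and the 3 of Il16 from −2.69 to 0.04.

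Of 14 tested genes listed for dentate granule cells, 10 were higher in hippocampus, 1 was higher in entorhinal cortex and 3 were not called, with a median of −1.49. Over all genes tested, 15.3% were called higher in entorhinal cortex and 24.5% in hippocampus. The counts of each list below are to be read beside these shares. Prox1, the homeobox factor that specifies granule cells and keeps their identity, read 4.68, 4.57, 5.15, 4.89 and 4.82 in entorhinal cortex against 7.74, 7.51, 7.54, 6.86 and 6.82 in hippocampus (−2.47 ± 0.19, adjusted p = 7.1e-06). All hippocampal arrays were above all entorhinal ones, the hippocampal sham 2 and 3 arrays least so. The entorhinal readings of Prox1 lay below the median of every array and were not shown to be above background. C1ql2, which mossy fibres secrete to gather kainate receptors at their synapses, read 5.75 to 6.42 in entorhinal cortex (median 6.25) and 8.62 to 9.63 in hippocampus (median 9.42). The matrix protein gene Npnt (−2.26 ± 0.22), the guidance gene Sema5a (−2.14 ± 0.13) and the cation channel gene Trpc6 (−0.84 ± 0.10) were higher in hippocampus too. Calb1, the calcium buffer calbindin, ran the other way: it read 11.61, 12.28, 11.93, 12.17 and 11.83 in entorhinal cortex and 11.69, 11.43, 11.53, 11.48 and 11.47 in hippocampus (0.44 ± 0.12, adjusted p = 0.0142). Its groups overlapped through entorhinal GFP 1 and hippocampal GFP 1. Calbindin is also a marker of superficial entorhinal cells, and its 3 probe sets ranged from 0.26 to 0.57. Neurod1, a differentiation factor of granule cells, was not called (−0.01 ± 0.15, 95% interval −0.34 to 0.32).

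For 4 genes known for cell classes of these regions, 2 of dentate granule cells (Lct and C1ql2) and 2 of entorhinal cortex (Reln and Cbln4, described with the cortical genes), the 250 bases before the start of the gene are shown, from RefSeq sequence of assembly GRCm38.p6. They are written 5′ to 3′ on the strand of the gene. The windows are chr1:128328319-128328568 on the minus strand for Lct, chr1:120340332-120340581 on the plus strand for C1ql2, chr5:22344706-22344955 on the minus strand for Reln and chr2:172043467-172043716 on the minus strand for Cbln4. Capitals mark CANNTG, the E-box core that basic helix-loop-helix factors such as those of the Neurod family can bind; it reads the same way on both strands.
Lct: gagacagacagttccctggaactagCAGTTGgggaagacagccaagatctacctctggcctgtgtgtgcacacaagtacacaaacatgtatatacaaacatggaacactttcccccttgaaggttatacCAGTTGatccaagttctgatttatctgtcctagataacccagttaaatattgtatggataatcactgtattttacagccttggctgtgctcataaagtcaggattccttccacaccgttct
C1ql2: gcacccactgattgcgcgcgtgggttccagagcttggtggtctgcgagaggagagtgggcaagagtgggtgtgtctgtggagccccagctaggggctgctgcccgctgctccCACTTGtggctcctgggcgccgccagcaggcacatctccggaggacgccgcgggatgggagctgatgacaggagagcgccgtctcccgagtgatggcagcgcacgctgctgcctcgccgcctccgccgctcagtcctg
Reln: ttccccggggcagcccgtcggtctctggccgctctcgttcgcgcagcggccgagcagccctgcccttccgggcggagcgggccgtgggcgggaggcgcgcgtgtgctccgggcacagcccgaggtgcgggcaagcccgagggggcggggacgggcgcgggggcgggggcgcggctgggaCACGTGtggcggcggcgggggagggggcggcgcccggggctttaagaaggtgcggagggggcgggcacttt
Cbln4: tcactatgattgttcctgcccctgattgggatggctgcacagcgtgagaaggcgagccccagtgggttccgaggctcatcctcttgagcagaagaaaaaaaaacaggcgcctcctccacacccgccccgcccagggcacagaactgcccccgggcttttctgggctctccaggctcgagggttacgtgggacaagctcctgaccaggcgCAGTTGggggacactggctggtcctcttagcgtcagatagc
The windows differed most in base composition, with a GC content of 42.8% for Lct, 68.8% for C1ql2, 80.0% for Reln and 60.8% for Cbln4. The Lct window held 2 matches and each of the others 1. Over genes with a window in the RefSeq table, 58.9% of all tested genes (7035 of 11950) held at least 1 match, as did 61.5% of those at least 2-fold higher in entorhinal cortex (107 of 174) and 57.5% of those at least 2-fold higher in hippocampus (96 of 167). The median GC contents were 59.2%, 58.4% and 61.2%. These shares lay near each other. A match is a description of letters and not a binding site, and more distant regulatory sequence was not examined.

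Pyramidal cell genes of the hippocampus divided by field. Of 10 genes shared by the CA fields, 7 were higher in hippocampus and 2 in entorhinal cortex (median −1.31). Hpca, which encodes the neuronal calcium sensor hippocalcin, read 11.01, 10.45, 10.64, 10.47 and 10.96 in entorhinal cortex and 13.07, 12.90, 13.14, 12.86 and 12.89 in hippocampus (−2.27 ± 0.12, adjusted p = 8.01e-07). Its second probe set read −3.24. Zbtb20, a zinc finger repressor needed for the identity of hippocampal neurons, read 8.17 to 8.56 (median 8.43) in entorhinal cortex and 9.77 to 10.01 (median 9.86) in hippocampus, and each of its 8 probe sets was lower in entorhinal cortex, by −0.80 to −1.78. Nr3c2, the mineralocorticoid receptor, read 8.66, 9.23, 9.10, 9.07 and 9.10 against 10.79, 10.69, 10.99, 10.81 and 10.74 (−1.77 ± 0.10). Hpca, Zbtb20 and Nr3c2 each separated every hippocampal array from every entorhinal one. The helix-loop-helix factor Neurod6 (−1.50 ± 0.27) and the ephrin receptor Epha7 (−1.15 ± 0.09) were higher in hippocampus as well, whereas the receptor kinase Tyro3 (0.78 ± 0.07) and the LIM factor Lhx2 (0.25 ± 0.06) were higher in entorhinal cortex. Crym, a thyroid hormone binding protein, was moderately higher in hippocampus (−0.56 ± 0.11).

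The CA3 list had 6 of 10 genes higher in hippocampus and 2 higher in entorhinal cortex (median −0.92). Iyd, a deiodinase gene (−1.86 ± 0.25), the adhesion gene Nectin3 (−1.84 ± 0.20), the BCL2 family gene Bok (−1.66 ± 0.07), the kainate receptor subunit Grik4 (−1.64 ± 0.09) and the copine gene Cpne4 (−0.99 ± 0.07) made up the hippocampal side with Dkk3 (−0.86 ± 0.11). Grik4 read 6.06 to 6.42 (median 6.20) on the entorhinal and 7.72 to 8.08 (median 7.81) on the hippocampal arrays. Coch (1.48 ± 0.19) and Ccn3 (1.39 ± 0.12), both genes of secreted matrix proteins, were higher in entorhinal cortex, with arrays that did not overlap. So 2 of the genes listed for CA3 read higher in the entorhinal tissue, and which cells made them was not tested.

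CA2 genes were higher in hippocampus in 6 of 10 and higher in entorhinal cortex in 1 (median −0.53). The called genes were the lipid transfer gene Stard5 (−1.24 ± 0.09), the matrix gene Vit (−1.20 ± 0.15), the secreted antagonist gene Sostdc1 (−1.19 ± 0.32), which is also a choroid plexus gene, Actn2 (−0.81 ± 0.13), Rgs14 (−0.81 ± 0.10) and Adcy1 (−0.26 ± 0.06). Rgs14, a regulator of G protein signalling that limits plasticity in CA2, read 9.20 to 9.46 (median 9.24) in entorhinal cortex and 9.79 to 10.38 (median 10.12) in hippocampus. Pcp4, a calmodulin binding peptide often used to mark CA2, was higher in entorhinal cortex: 11.90, 11.87, 12.13, 11.97 and 11.93 against 11.36, 11.49, 11.39, 11.34 and 11.37 (0.57 ± 0.06, adjusted p = 5.58e-05). It is a marker of cortical layer 5 too, and no entorhinal array was as low as a hippocampal one. Amigo2, another CA2 gene, was not called with its brightest probe set (−0.25 ± 0.11, adjusted p = 0.0868), while its other probe set read −2.34.

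For CA1, 4 of 10 genes were higher in hippocampus, 2 higher in entorhinal cortex and 4 not called (median −0.27). Pou3f1 read 7.95, 7.02, 7.56, 7.09 and 8.43 in entorhinal cortex and 10.39, 10.43, 10.46, 10.52 and 10.29 in hippocampus, so the entorhinal arrays were spread widely and the hippocampal ones closely. Fibcd1, an acetyl-binding surface receptor and a marker of CA1, read 6.58 to 7.53 (median 7.38) and 9.22 to 9.45 (median 9.29) (−2.16 ± 0.17). The TGF-beta family gene Lefty1 (−1.72 ± 0.14) and the orphan receptor Gpr161 (−1.41 ± 0.09) differed the same way. Wfs1, an endoplasmic reticulum membrane protein that marks both CA1 pyramidal cells and superficial entorhinal cells, was higher in entorhinal cortex. It read at least 10.89 on every array there (median 10.96) and 10.17 to 10.46 (median 10.20) in hippocampus (0.71 ± 0.06, adjusted p = 1.41e-05). The other gene of this list that was higher in entorhinal cortex, the proteoglycan gene Dcn (0.64 ± 0.22), is also a gene of the meninges.

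On the entorhinal side, the largest difference was that of Ccn2, a secreted matrix-associated protein that marks the deepest cortical layer and the former subplate. It read 10.70 and 9.12 with GFP and 9.89, 9.66 and 10.28 with sham in entorhinal cortex, and 6.57, 7.54, 6.10, 6.91 and 6.94 in hippocampus. No arrays overlapped (3.12 ± 0.31, adjusted p = 4.09e-05), and the level was 8.67-fold higher. Camk2d, the delta subunit of calcium/calmodulin kinase II, read 9.89, 10.45, 10.28, 10.30 and 10.02 against 7.33, 7.78, 6.59, 7.31 and 6.91 (3.00 ± 0.18). Its 4 probe sets were all higher in entorhinal cortex, by 0.47 to 3.00. The keratin gene Krt12 (2.98 ± 0.18), the glycine receptor subunit Glra3 (2.97 ± 0.17), the cyclic GMP dependent kinase Prkg2 (2.96 ± 0.18) and the predicted gene Gm12371 (2.81 ± 0.13) were of similar size. Dtl, an adaptor of a ubiquitin ligase (2.79 ± 0.09), and Sema3a, a secreted repulsive guidance cue (2.72 ± 0.11), came next; the 3 probe sets of Dtl ranged from −0.01 to 2.79.

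The remaining 4 of the 12 were the anion exchanger Slc26a7 (2.99 ± 0.30), the lubricating proteoglycan gene Prg4 (2.87 ± 0.31), the collagen-binding proteoglycan gene Fmod (2.65 ± 0.22) and the transporter Slc47a1 (2.54 ± 0.31). Each of them had its highest value on entorhinal sham 2, at 8.07, 8.5, 10.75 and 8.37. The same array had the highest mean over genes of the meninges and fibroblasts, 8.73 against 7.89 to 8.25 on the other entorhinal arrays and 7.26 to 7.43 on the hippocampal ones. The part of the meninges in these 4 differences was not tested directly. With the meningeal mean as a covariate, their differences were 1.29, 1.52, 1.31 and 1.21 and none was called (adjusted p = 0.457, 0.476, 0.262 and 0.572), while Krt12, Glra3, Sema3a, Dtl and Gm12371 were still called. Ccn2, Camk2d and Prkg2 were not called either, at 2.99, 2.50 and 2.67 (adjusted p = 0.205, 0.0706 and 0.056). Of the 12 genes with the largest difference towards hippocampus, Pou3f1, Spink8 and Il16 were not called with this covariate. Their differences were −2.11, −2.33 and −1.72 (adjusted p = 0.208, 0.103 and 0.155), and the others were still called. The covariate does not overlap between the regions, so it takes away much of the regional contrast of any gene.

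**Figure D2:**
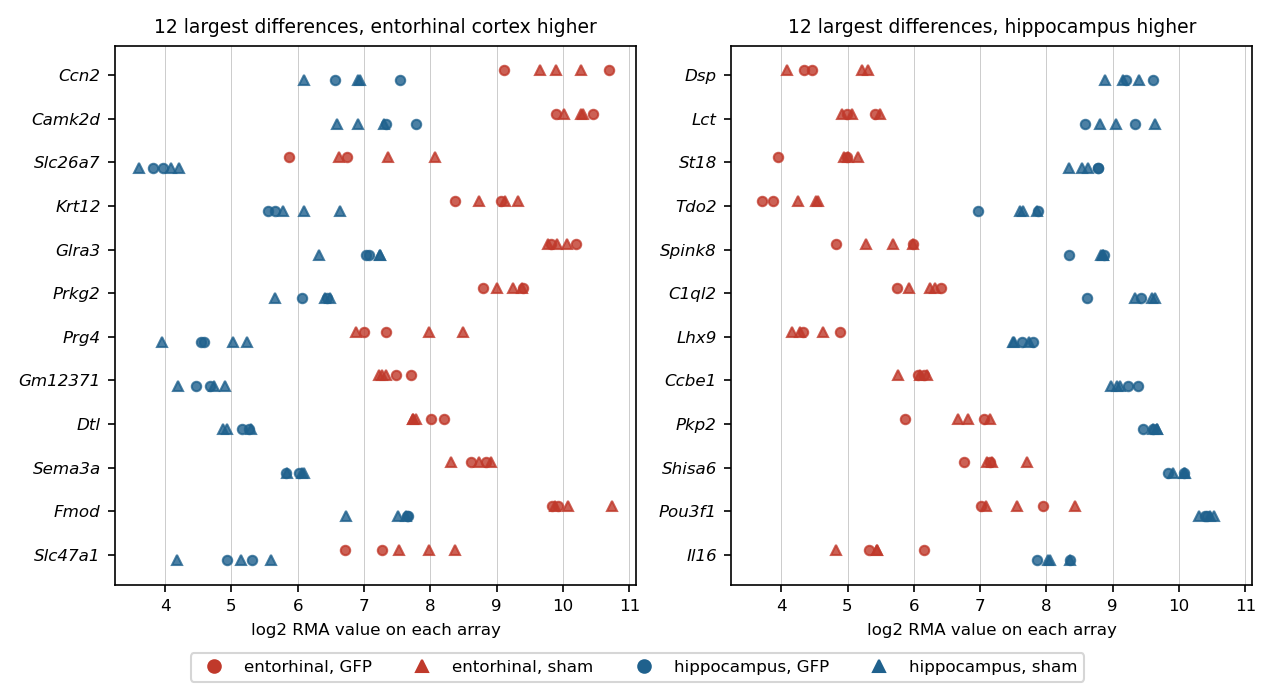
Each row is 1 gene and each point its log2 value on 1 array (red, entorhinal cortex; blue, hippocampus; circles, GFP; triangles, sham), for the 12 called genes with the largest difference in each direction. In every row the 5 red and 5 blue points are separate, by the widest margin for Dsp and Lct, and the red points of Slc26a7, Prg4 and Slc47a1 are the most spread.

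Genes of the superficial entorhinal layers were all called, 6 higher in entorhinal cortex and 2 higher in hippocampus of 8 tested (median 0.66). Reln encodes reelin, a large secreted glycoprotein that layer 2 stellate cells make. It read 11.54, 11.38, 11.38, 11.24 and 11.48 in entorhinal cortex and 9.39, 9.39, 9.38, 9.46 and 9.53 in hippocampus (1.98 ± 0.06, adjusted p = 5.5e-08). Its spread within a region was far below the difference, with an SD of 0.11 and 0.06. Cux2, a homeobox factor of upper layer neurons, read 9.02 to 9.77 (median 9.43) and 7.44 to 7.56 (median 7.5). The adhesion genes Cdh13 (1.11 ± 0.08) and Tmem132d (0.62 ± 0.11) were higher in entorhinal cortex too, with Wfs1 and Calb1 as given above. Lmo3 (−0.50 ± 0.10) and Rspo1 (−0.68 ± 0.14), also listed for these layers, were higher in hippocampus.

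Among 12 genes of upper cortical layers in general, 6 were higher in entorhinal cortex and 2 in hippocampus (median 0.37). Mef2c, an activity-regulated factor of excitatory neurons, read 12.14, 12.28, 12.19, 12.21 and 12.22 against 10.56, 10.31, 10.48, 10.32 and 10.37 (1.80 ± 0.06), with no overlap and little spread. The dendritic membrane protein gene Lamp5 (1.22 ± 0.07), Otof (0.90 ± 0.26), Rorb (0.50 ± 0.09) and Cux1 (0.43 ± 0.07) were higher in entorhinal cortex as well. Mdga1 (−0.43 ± 0.05) and Nectin3 were higher in hippocampus, the latter also being a CA3 gene.

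Genes of layer 6 and the subplate were higher in entorhinal cortex in 11 of 17 and higher in hippocampus in 0, with 6 not called (median 0.93). The neurotensin receptor Ntsr1, a marker of layer 6 cells that project to thalamus (1.68 ± 0.13), the complexin Cplx3 of subplate neurons (1.55 ± 0.17), the dopamine receptor Drd1 (1.39 ± 0.14) and the forkhead factor Foxp2 (1.37 ± 0.17) followed Ccn2. Tbr1, the T-box factor of deep layer neurons, read 8.78 to 9.10 (median 8.92) in entorhinal cortex and 7.74 to 8.41 (median 8.03) in hippocampus. Nr4a2, an orphan nuclear receptor of deep layers and claustrum, read 11.46, 10.22, 11.08, 10.63 and 11.18 against 9.52, 9.94, 9.29, 9.83 and 9.71 (1.26 ± 0.22, adjusted p = 0.00138). Its lowest entorhinal value, on GFP 2, came close to the highest hippocampal one, also on GFP 2, and its 6 probe sets ranged from −0.05 to 1.90. Trh, the gene of thyrotropin-releasing hormone, was not called (1.20 ± 0.48, adjusted p = 0.0689), because its entorhinal arrays ran from 4.83 to 7.5.

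Several of these genes varied together among the entorhinal arrays. Ccn2, Nr4a2, the cerebellin genes Cbln1 and Cbln4, and Neurod6 each had their highest entorhinal value on GFP 1 (10.70, 11.46, 10.44, 10.46 and 10.04) and their lowest on GFP 2 (9.12, 10.22, 8.83, 8.82 and 8.77). Trh and the neuropeptide Y receptor Npy2r were the opposite, lowest on GFP 1 (4.83 and 5.84) and highest on GFP 2 (7.5 and 7.81). Entorhinal GFP 2 also held the lowest myelin mean. These orders were noticed after the values were seen, and what the 2 arrays differed in was not tested.

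Layer 5 genes were divided, 6 higher in entorhinal cortex and 5 in hippocampus of 13 (median 0.13). Deptor, an inhibitor of the mTOR kinase (1.27 ± 0.21), the phosphodiesterase Pde1a (0.84 ± 0.13) and the retinol carrier Rbp4 (0.83 ± 0.20) were on the entorhinal side. Lratd2 (−1.79 ± 0.14), the sulfatase Sulf2 (−0.64 ± 0.11) and the layer 5 factor Bcl11b (−0.27 ± 0.06) were on the hippocampal side. The subiculum, which borders both regions, had 4 of 8 genes higher in entorhinal cortex (Cntn6 at 1.18 ± 0.19, S100a10, Fn1 and Nts) and 2 higher in hippocampus (Scn4b at −1.34 ± 0.16 and Bcl6), with a median of 0.45. Hilar mossy cell genes gave 1 and 2 calls of 7 (median 0.12), with the neuropeptide gene Nmb at −1.16 ± 0.10 and Calb2 at −0.94 ± 0.17. Claustral genes gave 2 and 1 of 9, the former being Nr4a2 and the vesicular glutamate transporter Slc17a6 (0.87 ± 0.14).

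**Figure D3:**
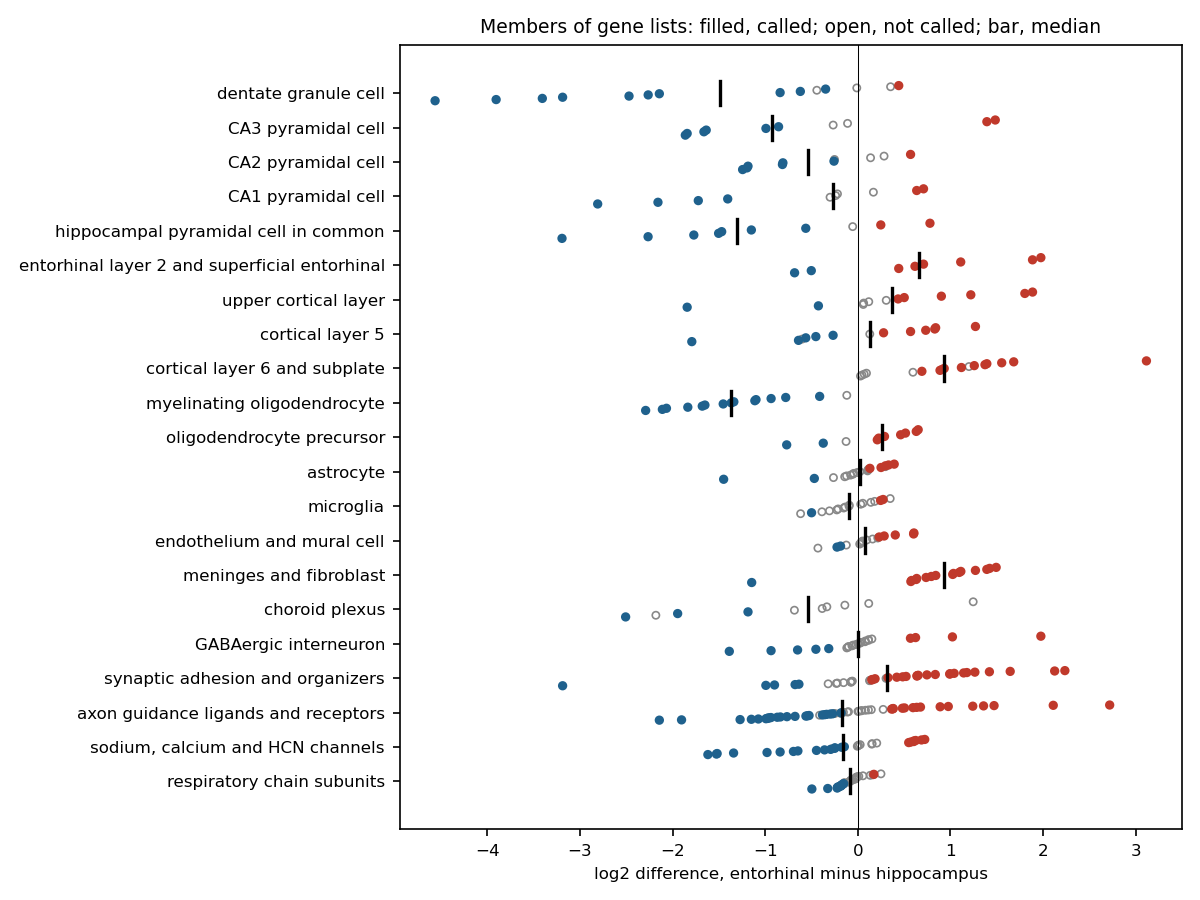
Each point is 1 tested member of a gene list, at its log2 difference (entorhinal minus hippocampus); filled points were called (red, higher in entorhinal cortex; blue, higher in hippocampus), open points were not, and the bar is the median. The dentate, shared hippocampal and myelin lists lie mostly left of 0 with medians of −1.49, −1.31 and −1.37, and the layer 6 and meningeal lists right of it with medians of 0.93.

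Transcription factors with known regional patterns were called in 28 of 41 (68.3%, against 39.8% over all genes). Of the 28, 18 were higher in entorhinal cortex and 10 in hippocampus, and the median over the list was 0.18. Besides Cux2, Mef2c, Foxp2 and Nr4a2, the nuclear receptor Nr2f2 (1.30 ± 0.18) was among the 5 largest on the entorhinal side; it patterns caudal and ventral cortex. Pou3f1, Prox1, Neurod6, Zbtb20 and Emx2 (−0.80 ± 0.08), a homeobox gene needed for the dentate gyrus to form, were the largest on the hippocampal side. So different factors were higher on each side. Of 18 receptors for steroid and thyroid hormones and their relatives, 8 were higher in entorhinal cortex and 4 in hippocampus. The orphan receptor Rora (1.03 ± 0.06), the progesterone receptor Pgr (0.80 ± 0.09) and the estrogen receptor Esr1 (0.65 ± 0.19) were on the former side. Both corticosteroid receptors bind the stress hormone corticosterone, and they behaved differently: Nr3c2 was the largest on the hippocampal side, while the glucocorticoid receptor Nr3c1 was not called (−0.09 ± 0.06, 95% interval −0.23 to 0.04) with arrays of 9.61 to 9.86 and 9.67 to 9.88. Other probe sets of Nr3c1 read up to 0.70.

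Receptors for glutamate differed by subunit. Of 15 AMPA and NMDA receptor genes and AMPA receptor partners, 6 were higher in entorhinal cortex and 3 in hippocampus (median 0.03). Gria1, the AMPA receptor subunit most tied to plasticity at hippocampal synapses, read 10.58, 10.81, 10.85, 10.83 and 10.69 in entorhinal cortex and 11.83 to 12.07 (median 12.06) in hippocampus (−1.25 ± 0.07, adjusted p = 7.4e-07). The cornichon Cnih2, which accompanies AMPA receptors to the surface, followed the same side (−1.55 ± 0.09), and its relative Cnih3 the other (0.71 ± 0.06). Gria4 (0.64 ± 0.09) and Gria3 (0.55 ± 0.13) were higher in entorhinal cortex, and Gria2 was not called (−0.06 ± 0.05, 95% interval −0.18 to 0.06). Thus the AMPA receptor subunits were not shifted as a group. Of the NMDA receptor genes, Grin3a (0.49 ± 0.08) was higher in entorhinal cortex, Grin2c (−0.17 ± 0.04) was higher in hippocampus and Grin2a was not called (−0.06 ± 0.08).

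Kainate and metabotropic receptor genes were called in 12 of 14 (85.7%, against 39.8% over all genes), 8 higher in entorhinal cortex (median 0.25). Grm8 (1.33 ± 0.14), Grik3 (1.20 ± 0.14), Grik1 (1.04 ± 0.13), Grm4 (0.73 ± 0.10) and Grm3 (0.54 ± 0.06) led the entorhinal side. Grik4, the kainate receptor partner Neto1 (−0.69 ± 0.07), Grik5 (−0.33 ± 0.05) and Grik2 (−0.32 ± 0.05) made up the hippocampal side, and these genes encode the subunits known from mossy fibre synapses. Of 10 GABA receptor genes, 4 were higher in entorhinal cortex, led by Gabra3 (1.28 ± 0.12) and Gabrg1 (0.63 ± 0.07). Gabra5, whose subunit carries tonic inhibition in hippocampal pyramidal cells, was the 1 higher in hippocampus (−0.81 ± 0.13).

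Ion channel genes divided by direction much as all called genes did, of which 61.5% were higher in hippocampus. Among 44 potassium channel genes, 18 were higher in hippocampus and 11 in entorhinal cortex (median −0.04). The modulatory subunit Kcng2 (−1.27 ± 0.09), the beta subunit Kcnab2 (−1.25 ± 0.06), Kcnip2 (−0.98 ± 0.10), Kcnd2 (−0.81 ± 0.06) and Kcnn2 (−0.80 ± 0.13) were largest on that side. Kcnd2 and Kcnip2 encode the pore and an auxiliary subunit of the dendritic A-type current, and both differed the same way. Kcna5 (1.62 ± 0.15), the silent subunit Kcnf1 (1.48 ± 0.17), Kcnj9 (0.98 ± 0.27), the sodium-activated channel Kcnt1 (0.83 ± 0.07) and the large-conductance channel Kcnma1 (0.69 ± 0.09) were higher in entorhinal cortex. Of 30 genes of sodium, calcium, HCN, TRPC and ryanodine receptor channels, 15 were higher in hippocampus and 7 in entorhinal cortex (median −0.16). Ryr1 (−1.62 ± 0.17), Trpc4 (−1.53 ± 0.12), the T-type calcium channel Cacna1h (−1.52 ± 0.09), Scn4b and Ryr3 (−0.98 ± 0.06) were the largest on the hippocampal side. The entorhinal side, led by Cacna2d2 (0.72 ± 0.10), Cacna1b (0.69 ± 0.10) and Scn2a (0.62 ± 0.07), reached no 2-fold difference.

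Of 29 receptors for monoamines, acetylcholine, cannabinoids and opioids, 5 were higher in entorhinal cortex and 7 in hippocampus, and the 41.4% called was near the 39.8% over all genes. The serotonin receptor Htr4 read 5.09 to 5.90 (median 5.63) in entorhinal cortex and 7.29 to 7.90 (median 7.48) in hippocampus (−1.92 ± 0.16). Htr5b (−1.21 ± 0.13), the nicotinic subunits Chrna7 (−0.89 ± 0.10) and Chrna5 (−0.61 ± 0.18), and the adrenergic receptor Adra2c (−0.49 ± 0.07) were higher in hippocampus too. The histamine receptor Hrh1 (1.49 ± 0.13), Drd1, Htr2c (0.73 ± 0.24), Chrna4 (0.49 ± 0.14) and Htr7 (0.30 ± 0.08) were the 5 higher in entorhinal cortex.

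Of 27 receptors for peptides and hormones, 10 were higher in entorhinal cortex and 5 in hippocampus (median 0.17). Cckbr, the brain receptor of cholecystokinin, read 8.79, 9.04, 8.81, 8.99 and 8.96 against 7.02, 6.93, 6.81, 6.84 and 6.99 (2.00 ± 0.07), with no overlap. Its second probe set read 0.59. Npy2r, a presynaptic receptor of neuropeptide Y, was the largest on the hippocampal side, at 5.84, 7.81, 6.78, 7.38 and 6.82 against 9.66, 9.40, 9.53, 9.54 and 9.42 (−2.58 ± 0.30). The neuropeptide Y receptor Npy5r (−0.59 ± 0.09) was higher in hippocampus as well, and Npy1r was not called. Somatostatin receptors were divided, with Sstr2 at 0.88 ± 0.09 and Sstr4 at −1.0 ± 0.09.

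The peptide genes themselves gave 9 calls for entorhinal cortex and 7 for hippocampus of 26 (median 0.03). Penk, the enkephalin precursor (1.30 ± 0.16), the tachykinin gene Tac2 (1.05 ± 0.11), the stress peptide gene Crh (1.04 ± 0.20), Vip (1.02 ± 0.11) and Cartpt (1.0 ± 0.22) were higher in entorhinal cortex. Grp, the gastrin-releasing peptide gene (−1.67 ± 0.18), Nmb, the granin gene Scg2 (−1.04 ± 0.05) and the dynorphin precursor Pdyn (−0.72 ± 0.11), a peptide of mossy fibres, were higher in hippocampus. Opioid precursors therefore lay on opposite sides.

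Genes of synaptic adhesion leaned to the entorhinal side, with 22 higher there and 5 higher in hippocampus of 40 tested (median 0.31). Over all genes, 15.3% were called higher in entorhinal cortex and 24.5% in hippocampus. Cbln1 and Cbln4, secreted organizers that bridge neurexins to their partners across the synapse, differed by 2.24 ± 0.30 and 2.13 ± 0.29. Cbln4 read 10.46, 8.82, 9.53, 9.23 and 10.10 against 7.35, 7.89, 7.08, 7.58 and 7.62. Every entorhinal array was above every hippocampal one, although entorhinal GFP 1 and GFP 2 lay at the ends of a wide range. Lrrtm3 (1.65 ± 0.16), Cntnap5a (1.42 ± 0.09) and the teneurin Tenm1 (1.26 ± 0.07) came next. The related C1q family member C1ql2, Clstn2 (−0.99 ± 0.09) and the pentraxin Nptx1 (−0.90 ± 0.15) were higher in hippocampus. Lrrtm4, a postsynaptic organizer of granule cells, was higher in hippocampus with its brightest probe set (−0.64 ± 0.11), but the mean of its probe sets read 0.12.

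Cadherin genes gave 13 calls for entorhinal cortex and 6 for hippocampus of 27 (median 0.29), against 15.3% and 24.5% of all genes. Pcdh7 (1.51 ± 0.19), Cdh4 (1.25 ± 0.25), Cdh13 and Pcdh15 (1.09 ± 0.09) were on the entorhinal side, and Pcdh20 was the largest on the other (−2.25 ± 0.17). Of 53 axon guidance genes, 23 were higher in hippocampus and 15 in entorhinal cortex (median −0.17), a division near the 61.5% higher in hippocampus among all calls. Sema5a, Sema3e (−1.90 ± 0.23), Slit1 (−1.27 ± 0.06), Epha7 and Epha4 (−1.07 ± 0.11) led the hippocampal side. Sema3a, its family's receptor Plxnd1 (2.11 ± 0.12), Unc5d (1.47 ± 0.20), Ntng1 (1.36 ± 0.16) and Efnb2 (1.24 ± 0.12) led the entorhinal side. The signalling receptor of Sema3e is Plxnd1, which read 8.58, 8.87, 9.14, 9.20 and 8.67 in entorhinal cortex and 6.68, 6.33, 6.94, 7.04 and 6.92 in hippocampus. The ligand and this receptor were therefore higher on opposite sides, both with arrays that did not overlap.

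Growth factor signalling showed no common direction, with 9 genes higher in entorhinal cortex and 10 in hippocampus of 31 (median 0.02). Bdnf, the neurotrophin that the study's vector encodes, read 7.42 and 8.21 with GFP and 7.83, 8.26 and 8.05 with sham in entorhinal cortex. In hippocampus it read 9.12, 8.60, 8.84, 8.81 and 8.82. Every hippocampal array was higher, by −0.88 ± 0.16 in the mean (adjusted p = 0.00136), and its second probe set read −1.10. Ntrk2, which encodes the BDNF receptor TrkB, read 10.99 to 11.23 (median 11.11) in entorhinal cortex and 10.54 to 10.91 (median 10.79) in hippocampus (0.37 ± 0.07). The ligand was therefore higher in hippocampus and the receptor modestly higher in entorhinal cortex. Its 7 probe sets ranged from 0.09 to 0.79. Tgfb2 (−1.47 ± 0.18), Gfra1, a co-receptor of GDNF (−1.25 ± 0.09), Igfbp4 (−1.18 ± 0.07) and Fgfr1 (−1.03 ± 0.08) were higher in hippocampus, and Fgf12 (0.95 ± 0.09) and Bmp4 (0.75 ± 0.10) in entorhinal cortex.

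Wnt pathway genes gave 11 calls for entorhinal cortex and 4 for hippocampus of 26 (median 0.08), against 15.3% and 24.5% of all genes. The receptor Fzd3 (0.94 ± 0.09), the ligand Wnt4 (0.79 ± 0.14) and Fzd1 (0.69 ± 0.07) were on the entorhinal side, and the receptor kinase Ror1 was the largest difference of the list (−1.79 ± 0.15). In the retinoic acid pathway, 5 of 15 were higher in entorhinal cortex and 4 in hippocampus (median −0.16). Retinaldehyde dehydrogenases, which make retinoic acid, lay on opposite sides, Aldh1a2 at 1.39 ± 0.18 and Aldh1a1 at −1.52 ± 0.15. Aldh1a2 is a gene of the meninges too, and the meningeal list was higher in entorhinal cortex as a whole.

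Calcium-binding and calmodulin-regulated genes were called in 23 of 30 (76.7%, against 39.8% over all genes), 12 and 11 per direction (median 0.06). Genes of calcium/calmodulin kinases differed in sign: Camk2d and Camk4 (0.77 ± 0.15) were higher in entorhinal cortex and Camk2b (−1.07 ± 0.06) in hippocampus, while Camk2a was not called (95% interval −0.40 to 0.04). Gap43, a growth cone protein (1.26 ± 0.09), Necab1 (1.32 ± 0.15) and Hpcal1 (1.20 ± 0.07) were higher in entorhinal cortex. Cabp7 (−2.41 ± 0.19), Hpca and Cabp1 (−1.14 ± 0.18) were higher in hippocampus. Of 38 genes of cyclic AMP, G protein and protein kinase C signalling, 16 were higher in entorhinal cortex and 9 in hippocampus (median 0.18), led by the G protein subunit Gng4 (1.82 ± 0.11) and the adenylyl cyclase Adcy8 (1.34 ± 0.07) on one side and Prkcd (−0.94 ± 0.16) and Rgs14 on the other.

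Genes of synaptic vesicle release gave 15 calls for entorhinal cortex and 9 for hippocampus of 37 (median 0.13), against 15.3% and 24.5% of all genes. Cplx3, Unc13c (1.54 ± 0.19) and the SNARE gene Stx1a (1.20 ± 0.06) were the largest on the entorhinal side. Doc2b (−1.59 ± 0.12), the vesicle SNARE Vamp1 (−1.36 ± 0.05) and the calcium sensor Syt2 (−0.85 ± 0.10), the latter pair being known from fast-spiking cells, were the largest on the hippocampal side. Immediate early genes, which respond to recent activity and to handling, gave 5 and 6 calls of 23 (median −0.07). Egr2 (1.16 ± 0.32) and Fos (0.74 ± 0.24) were higher in entorhinal cortex, and Arc (−1.18 ± 0.28) and Nr4a3 (−1.14 ± 0.09) in hippocampus. Arrays overlapped for Egr2, Fos and Arc: Fos ran from 8.71 to 9.79 in entorhinal cortex and from 7.80 to 9.13 in hippocampus.

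Genes of GABAergic interneurons were called in 9 of 23, with a median of 0.00; this share of 39.1% was near the 39.8% over all genes. Gad1 (0.12 ± 0.07, 95% interval −0.03 to 0.26), Gad2 (0.12 ± 0.07, −0.03 to 0.27) and the vesicular transporter Slc32a1 (−0.05 ± 0.07, −0.21 to 0.11), which all such cells need, had intervals well within 1.5-fold. Subtype genes did differ. Pvalb, the calcium buffer of fast-spiking cells, read 8.31, 7.05, 7.80, 7.20 and 8.22 in entorhinal cortex and 9.09, 9.02, 9.19, 9.09 and 9.13 in hippocampus (−1.39 ± 0.23). With the mean over myelin genes as a covariate, the limma difference of Pvalb was 0.29 (adjusted p = 0.634). With the meningeal mean it was −0.67 (adjusted p = 0.726), so Pvalb was called with neither. Both covariates differ between the regions without overlap. Calb2, Kcnc1 (−0.65 ± 0.09), Htr3a (−0.45 ± 0.10) and Cck (−0.31 ± 0.06) were higher in hippocampus, and Vip, Satb1 (0.62 ± 0.22), Sox6 (0.57 ± 0.09) and Reln in entorhinal cortex. Several of these genes are made by other neurons as well, Reln by layer 2 stellate cells and Calb2 by mossy cells.

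Cytoskeletal genes of axons were called in 14 of 22 (63.6%, against 39.8% over all genes). The neurofilament genes Nefm (−0.89 ± 0.06), Nefh (−0.83 ± 0.10) and Nefl (−0.54 ± 0.07) were all higher in hippocampus, and Gap43, Dcx, Map1b (0.76 ± 0.11), Stmn1 (0.74 ± 0.06) and Dclk1 (0.42 ± 0.04), genes of growing axons, were higher in entorhinal cortex. Dcx, which encodes doublecortin, is best known from newborn granule cells of the dentate gyrus. It read 7.41 to 7.66 (median 7.5) in entorhinal cortex and 6.22 to 6.59 (median 6.43) in hippocampus (1.12 ± 0.08, adjusted p = 5.81e-06); its 3 probe sets ranged from −0.01 to 1.12. Of 16 neurogenesis genes, 6 were higher in entorhinal cortex (Dcx, Sox11 at 1.09 ± 0.24, Stmn1, Tubb3 and Sox2 the largest) and 3 in hippocampus (Prox1, Calb2 and Cd24a), with a median of −0.07.

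Among 17 genes of APP and its processing, 4 were higher in entorhinal cortex and 6 in hippocampus (median 0.00), none of them 2-fold. App itself read 13.26 to 13.34 (median 13.29) and 13.11 to 13.23 (median 13.17), a difference of 0.13 ± 0.05 (adjusted p = 0.0409) whose second probe set read −0.07. Bace1, the beta-secretase (0.54 ± 0.08), and Aph1b (0.48 ± 0.10) were higher in entorhinal cortex, and Aph1a (−0.42 ± 0.07), Ncstn (−0.33 ± 0.09) and Apoe (−0.25 ± 0.05) in hippocampus. The 2 Aph1 genes encode alternative subunits of gamma-secretase. Adam10 (0.28 ± 0.05) read −0.02 as the mean of its probe sets. Respiratory chain genes gave 11 calls for hippocampus and 1 for entorhinal cortex of 32 (median −0.09), at 37.5% a share close to that of all genes; their largest differences were Uqcrc1 (−0.50 ± 0.07) and Sdhd (−0.32 ± 0.07).

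Myelin genes formed the most uniform hippocampal list, with 14 of 15 higher in hippocampus and 0 in entorhinal cortex (median −1.37). Mobp, a protein of compact myelin, read 10.15, 7.67, 9.36, 8.99 and 9.37 in entorhinal cortex and 11.37, 11.15, 11.63, 11.38 and 11.48 in hippocampus (−2.29 ± 0.36, adjusted p = 0.00066). Mog (−2.11 ± 0.32), Ermn (−2.07 ± 0.31), Mag (−1.84 ± 0.17) and Ppp1r14a (−1.68 ± 0.27) were the next largest. Entorhinal GFP 2 was the lowest array for Mobp, and without this array the number of genes called was 5653. Mbp, the myelin basic protein gene, read 12.54, 11.32, 12.21, 12.15 and 12.46 against 13.04, 13.16, 13.13, 13.05 and 12.99 (−0.94 ± 0.19), with other probe sets between −1.97 and 1.05. How much white matter was dissected with each region was not tested. Precursors of oligodendrocytes were on the other side: 7 of 10 of their genes were higher in entorhinal cortex, among them Lhfpl3 (0.65 ± 0.07) and Pdgfra (0.63 ± 0.07), and Sox10 (−0.77 ± 0.09) and Olig2 (−0.37 ± 0.06), which mature cells share, were higher in hippocampus.

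Astrocyte genes were called in 7 of 19 (36.8%), near the 39.8% over all genes, with a median of 0.02. Gfap, the intermediate filament of fibrous and reactive astrocytes, was the exception in size: it read 9.62, 8.99, 9.07, 9.24 and 9.21 in entorhinal cortex and 10.81, 10.54, 10.86, 10.53 and 10.65 in hippocampus (−1.45 ± 0.12, adjusted p = 1.11e-05). Slc7a10 (−0.47 ± 0.07) was the other called higher in hippocampus, and Aqp4 (0.39 ± 0.09), Gjb6 (0.33 ± 0.11), Mfge8 (0.30 ± 0.05), Gja1 (0.25 ± 0.09) and Slc1a2 (0.13 ± 0.04) were higher in entorhinal cortex. Slc1a3 (95% interval −0.03 to 0.24) and Aldoc (−0.09 to 0.13) were not called. Microglial genes were called in 3 of 17 (17.6%, median −0.09), with Trem2 the largest (−0.50 ± 0.10) and P2ry12 (−0.04 to 0.15) and Csf1r (−0.17 to 0.23) not called. Vascular genes were called in 7 of 16 (43.8%, also near the share over all genes, median 0.07), Flt1 (0.61 ± 0.10) and Abcb1a (0.60 ± 0.07) being the largest. So glial and vascular lists other than those of the oligodendrocyte line were centred near 0.

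The meningeal list was the most uniform entorhinal one: 15 of 16 genes were higher in entorhinal cortex and 1 in hippocampus, with a median of 0.93. The transporters Slc13a4 (1.49 ± 0.15) and Slc6a20a (1.27 ± 0.16), the collagens Col1a2 (1.42 ± 0.15) and Col3a1 (1.10 ± 0.16), and Aldh1a2 led. Col1a2 read 8.73, 8.95, 8.98, 9.65 and 9.21 against 7.35, 7.87, 7.96, 7.55 and 7.66, so entorhinal sham 2 was again the highest. Lum, the proteoglycan lumican, was the exception (−1.15 ± 0.11). How much of the membranes was dissected with each region was not tested. With the mean of this list as a covariate, 173 genes were called in place of 5952, and 119 of the 461 genes with a 2-fold difference were still called in the same direction while 6 had the opposite sign. With the myelin mean, 1273 genes were called, 266 of the 461 in the same direction, and 31 of the 461 had the opposite sign.

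Choroid plexus genes gave 3 calls of 10, all higher in hippocampus: Kl (−2.51 ± 0.33), Calml4 (−1.95 ± 0.51) and Sostdc1. Ttr, the transthyretin gene that defines choroid plexus, read 8.38, 6.12, 7.01, 6.75 and 5.49 in entorhinal cortex and 8.06, 7.28, 13.75, 8.37 and 7.19 in hippocampus. It was not called (−2.18 ± 1.15, adjusted p = 0.158), since hippocampal sham 1 alone was far above the rest and the other groups overlapped. Kl, whose product klotho is also made by hippocampal neurons, was highest on the same array (8.46) but was higher on all 5 hippocampal arrays (5.71 to 8.46) than on the entorhinal ones (3.81 to 4.66). Ependymal genes gave 5 calls for hippocampus and 1 for entorhinal cortex of 10 (median −0.32), led by Tmem212 (−1.48 ± 0.23) and Dynlrb2 (−1.47 ± 0.25). Of 13 MHC genes 0 were called, and of 11 lymphocyte genes 1 (Cd79a at −0.30 ± 0.10); Ighm read 12.82 on entorhinal GFP 1 and 12.12 and 12.44 on hippocampal GFP 1 and 2 against 6.31 to 6.93 on the other 7 arrays.

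**Figure D4:**
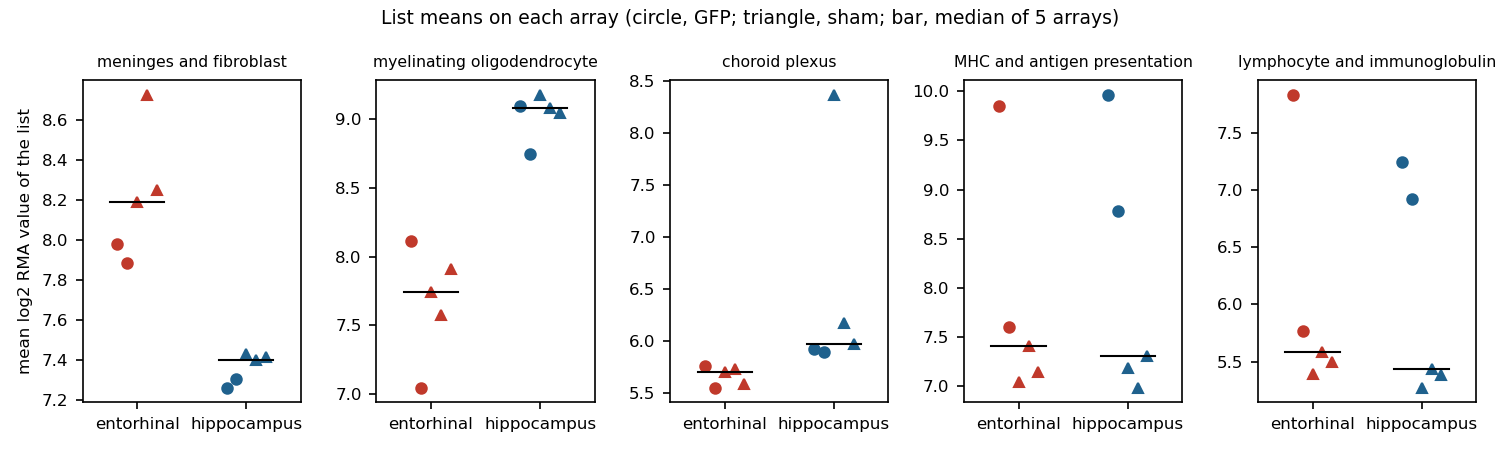
Each point is the mean log2 value of a gene list on 1 array (red, entorhinal cortex; blue, hippocampus; circles, GFP; triangles, sham; bar, median of 5). Meningeal means (7.89 to 8.73 against 7.26 to 7.43) and myelin means (7.05 to 8.11 against 8.75 to 9.18) do not overlap between regions, the choroid plexus mean is high on hippocampal sham 1 (8.37), and MHC and lymphocyte means are high on 3 of the 4 GFP arrays.

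Genes known from neighbouring or distant brain regions were checked too. Of 12 striatal genes, 5 were higher in entorhinal cortex and 3 in hippocampus. Gpr6, an orphan receptor of striatal cells, read 7.70, 6.85, 6.76, 6.45 and 6.91 against 4.66, 4.89, 3.53, 4.62 and 4.48 (2.50 ± 0.22). Drd1, Penk, Tac1 and Rarb were higher in entorhinal cortex too, and Pdyn, Foxp1 and Rgs9 were higher in hippocampus. Ppp1r1b (−0.07 ± 0.15) and Drd2 (−0.30 ± 0.14) were not called. The mean of the striatal list was 7.75 to 7.87 on the entorhinal arrays and 7.35 to 7.51 on the hippocampal ones. Of 9 amygdalar and piriform genes, 4 were higher in entorhinal cortex and 1, Grp, in hippocampus. Thalamic genes gave 5 and 5 calls of 11 and cerebellar genes 4 and 2 of 8. The cerebellar genes Cbln1, Car8, Zic1 and Zic2 were higher in entorhinal cortex, and Pvalb and Calb2 in hippocampus. Pcp2 (−0.06 ± 0.06) and Fat2 (0.04 ± 0.06) were not called, and Gabra6, Cbln3 and En2 lay below the filter on low values. The mean of the cerebellar list was 7.14 to 7.44 on the entorhinal arrays and 6.90 to 7.11 on the hippocampal ones. Xist, expressed from the silenced X chromosome of females, read 10.38 to 10.89 on all 10 arrays (−0.11 ± 0.09), so the comparison was not divided by it.

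The regional difference was compared between the GFP and sham animals. A test of the difference between the treatments called 0 of the 14938 (0%). Unadjusted p-values were under 0.05 for 499, where 747 would be the average without any difference, and the smallest adjusted p was 0.542. With the trend and robust options of limma it called 0 as well, and without entorhinal GFP 1 it called 7. The smallest p belonged to Dhx36, an RNA helicase, which read 9.60 and 9.71 with GFP and 9.57, 9.61 and 9.60 with sham in entorhinal cortex, and 9.31 and 9.41 against 8.58, 8.55 and 8.46 in hippocampus. Only the hippocampal values parted by treatment, giving a difference of differences of −0.76 ± 0.10. Lgr6, a receptor of R-spondins, read 6.70 and 6.20 on the hippocampal GFP arrays and 4.74, 4.89 and 5.02 on the sham ones, with 4.36 to 5.12 in entorhinal cortex (−1.89 ± 0.30, adjusted p = 0.901). Its regional difference was 0.17 within sham and −1.72 within GFP. Gstm2 was the next (−0.66 ± 0.11).

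The same regional difference was then measured in the 16 transgenic arrays, which share no array with the 10. There, 6244 genes (41.8%) were called, 2525 higher in entorhinal cortex and 3719 in hippocampus. Of them, 4550 were called in the same direction in both genotypes, 76.4% of the non-transgenic calls and 72.9% of the transgenic ones, and 2 were called in opposite directions. Of the 461 genes with a 2-fold difference, 459 were called in the same direction and 363 were again at least 2-fold. Dsp differed by −4.88 ± 0.20 in the transgenic arrays, Ccn2 by 3.16 ± 0.18, Prox1 by −2.18 ± 0.20 and Reln by 1.73 ± 0.09. Across all 14938 genes the differences of the genotypes correlated at r = 0.932, and across the 461 at 0.986, as a description across genes, which are not independent replicates. The 461 were chosen for a large difference in the non-transgenic arrays. Such a choice raises r, so the 2 values cannot be set against each other.

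A test of the difference between genotypes called none, 0%, of the 14938 genes. Unadjusted p-values were under 0.05 for 794, and the smallest adjusted p was 0.615. Without entorhinal GFP 1 or hippocampal sham 2 it called 2. Nmral1, a redox sensor gene, had the smallest p: it differed by −0.96 ± 0.10 in non-transgenic and −0.37 ± 0.07 in transgenic arrays (difference −0.54 ± 0.10 in the fit to all 26 arrays, which weights both treatments of a genotype equally). Oosp3 (0.30 ± 0.06) and the transcription factor Ebf2 (0.70 ± 0.17) followed. Camk2d differed by 3.00 ± 0.18 and 2.31 ± 0.13 in the respective genotypes, Pvalb by −1.39 ± 0.23 and −0.61 ± 0.21, and Grp by −1.67 ± 0.18 and −0.86 ± 0.27. None of these 3 passed the test of the difference (adjusted p = 0.916 for each). The transgenic groups included BDNF-treated animals, so genotype and treatment are mixed in this comparison. Sex is mixed with genotype too: Xist ran from 5.42 to 10.96 on the transgenic entorhinal arrays and from 5.38 to 11.01 on the hippocampal ones, but was at least 10.38 on all non-transgenic arrays. Its part was not tested. With the GFP arrays alone it called 0 as well.

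**Figure D5:**
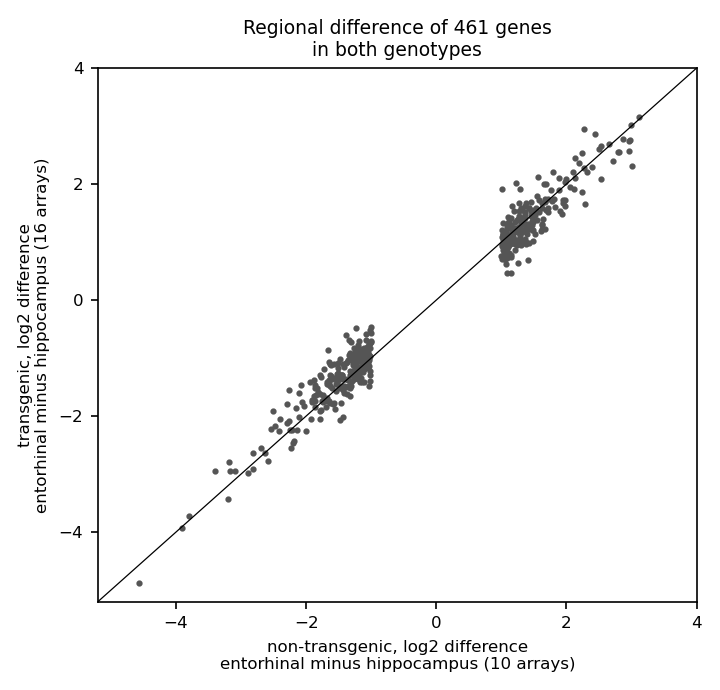
Each point is 1 of the 461 genes called with at least a 2-fold difference in the non-transgenic arrays, with its log2 difference (entorhinal minus hippocampus) in the 10 non-transgenic arrays on the horizontal and in the 16 transgenic arrays on the vertical axis; the line marks equal differences. The points lie along the line on both sides of 0 (r = 0.986). The empty middle of the horizontal axis follows from the choice of genes with a log2 difference of at least 1, and this choice also raises r.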

How the data were processed

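Gene expression was measured in total RNA on 26 Affymetrix mouse arrays, of which the 10 non-transgenic arrays were compared. The authors deposited log2 values of 45101 probe sets made with RMA, which corrects background, normalizes by quantiles and summarises probes, per the submitters' processing notes. The RMA version was not given in the sources used here, nor was a build.

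Probe sets were named from GEO's platform annotation: 34958 had 1 gene symbol, 932 several and 9211 none. Of the first, 34754 were matched by Entrez identifier to the RefSeq gene table of GRCm38.p6, the source of names and promoter sequence. Each gene was read from the probe set with the highest mean over the 10 arrays. Genes were left out where that mean lay in the lowest 30% of the means of all probe sets, below 4.34. Of 18194 genes with a probe set, 14938 remained. The model, region with treatment as a covariate, was fitted by lmFit and eBayes of limma 3.58.1, under R 4.3.3, and p-values were adjusted by Benjamini-Hochberg over all genes tested. Interaction terms tested GFP against sham and non-transgenic against transgenic. The script was tested on simulated data. Of 966 genes in 52 lists, 892 had a probe set and 855 were tested. Listed genes without one were not analysed here. Because replicates are only called biological, p-values measure the spread between these arrays.

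The text names the 12 called genes with the largest difference per direction whose arrays did not overlap, up to 5 called genes per direction of each list, a set of regional and disease genes (Prox1, Reln, Bdnf, App and others), and the genes with the smallest p for each interaction. Genes that were not called and some further list members were picked once values were known. The comparison, the lists and the tests were chosen with earlier results of these data known. Alternatives were other filters, probe set rules, scalings, covariates, a replicate block, treatments taken alone and leaving out each array; the 2 cell type covariates were added after seeing the data.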

Additional observations from a re-analysis of the deposited data

Results flagged for a closer look

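On 16 occasions among 182 checked, 1 of the 5 arrays of a region lay apart from the other 4 by more than Dixon's 95% critical value (0.71 of the range for 5 samples). Chance alone marks about 1 in 20 groups.

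Among gene list means, the choroid plexus mean of hippocampal sham 1 was 8.37, against 5.89 to 6.17 on the others, and Ttr on the same array read 13.75 against 7.19 to 8.37. Entorhinal GFP 1 had an MHC mean of 9.85 against 7.04 to 7.60 and a lymphocyte mean of 7.83 against 5.39 to 5.77. The cerebellar list was low on entorhinal GFP 2 (7.14 against 7.36 to 7.44). Hippocampal sham 1 was low for the cadherin list (8.14 against 8.26 to 8.31) and the synaptic adhesion list (8.71 against 8.85 to 8.90). The superficial entorhinal list on entorhinal sham 1 (9.29 against 9.32 to 9.33) and the growth factor list on hippocampal GFP 1 (8.45 against 8.49 to 8.51) stood apart by very little, since the other 4 arrays lay so close together.

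Among single genes with a large regional difference, Glra3 on hippocampal sham 1 was low at 6.33 against 7.03 to 7.25. Fmod was low on the same array (6.73 against 7.51 to 7.66) and high on entorhinal sham 2 (10.75 against 9.83 to 10.07). St18 was low on entorhinal GFP 2 (3.94 against 4.95 to 5.15). Hippocampal GFP 2 was low for Spink8 (8.34 against 8.82 to 8.86) and C1ql2 (8.62 against 9.34 to 9.63). Nr3c2 was low on entorhinal GFP 1 (8.66 against 9.07 to 9.23). Of these genes, Ttr overlapped between the regions and the other 6 did not.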

How the results depend on the processing

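The 5952 genes called, and the 461 with a 2-fold difference, came to 11603 and 995 when all probe sets were tested one by one, to 400 and 262 with the GFP arrays alone, and to 173 and 145 with the meningeal mean as a covariate; with the myelin mean the counts were 1273 and 681. Fewer arrays, more features or a covariate that follows region enter these fits. Under the other settings tried (filters, mean of the probe sets, scaling, array weights, treatment handling, 26 arrays) they were 5049 to 7049 and 340 to 505. Leaving out each array in turn gave 4954 to 6165 and 432 to 493. The count for GFP against sham was 0 to 7 (7 without entorhinal GFP 1), and that between genotypes 0 to 2. Called list members numbered 511 of 855 tested, with 467 to 528 without 1 array, and transgenic calls 6244, with 5649 to 6293. Over all genes tested, 39.8% were called. Genes with probe sets called in opposite directions numbered 384, with 243 to 484 without 1 array (243 without hippocampal GFP 1).

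With the mean of the probe sets, Lrrtm4 (0.12), Adam10 (−0.022), Sdhd (0.033), Cox5a (0.060) and Xist (0.40) changed sign, as did Lgr6 (0.17) in the sham arrays alone; the cause was not tested.

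The labels number replicates alike in both regions. With the replicate number as a block, 5851 genes were called, 462 of them with a 2-fold difference, 518 list members, 5471 genes in the transgenic arrays and 334 genes with opposite probe sets, and both interaction tests called 0. Deviations of same-numbered sham arrays correlated at −0.231, 0.0875 and −0.186, so the numbers were not taken as pairs. Those of same-numbered GFP arrays correlated at 0.467. With 2 GFP arrays per region, both pairs give the same value by construction. Deviations of entorhinal sham 1, 2 and 3 correlated with hippocampal sham 2, 3 and 1 at 0.236, 0.13 and 0.33. This order was picked from the values. The sham numbers may be crossed between regions, but this was not tested and no crossed pairing was fitted. App lost its call under the block (adjusted p = 0.073). Signal near background limits genes left out by the filter, among them Y-linked ones.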

Other observations

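Different probe sets of 1 gene were called in opposite directions between the regions for 384 of 6975 genes with at least 2 tested probe sets (31571 probe sets tested, of which 11603, or 36.8%, were called). The gap was at least 1 on the log2 scale for 93 of them. Sptbn1, a spectrin of the membrane skeleton, read 1.40 with one probe set and −1.76 with another. Mbp read 1.05 and −1.97, and Nell2, a secreted protein of neurons, 1.02 and −1.28; these 3 were the genes with a difference of at least 2-fold both ways. The desaturase Scd2 read 1.87 and −0.42 and the nuclear envelope gene Syne1 1.46 and −0.68. Probe sets of a gene can read different transcript ends or splice forms, and which forms these read was not tested.

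Some genes were divided between arrays and not between regions. A search made after the values were seen found 20 genes for which the largest gap between arrays exceeded 75% of the range, and the range exceeded 0.8, in each region. Pttg1, the securin of chromosome separation, read 10.79, 7.60, 11.31, 11.39 and 11.41 in entorhinal cortex and 10.99, 7.83, 11.60, 11.80 and 11.52 in hippocampus, low on GFP 2 of both regions. Irf1, Irf8, Tap2 and Tlr2, genes of immune signalling, stood apart on GFP 1 of both. The membrane protein gene Tmem87a was high on entorhinal sham 3 (8.55) and hippocampal sham 1 (8.48) and read 4.26 to 5.35 on the other 8 arrays. Cap1, a regulator of actin, was low on entorhinal sham 1 (6.64) and hippocampal sham 2 (6.83) and read 10.12 to 11.42 elsewhere. Eps8l1 was high on entorhinal sham 2 (5.41) and hippocampal sham 3 (5.68). In 6 of the 20 genes the arrays apart were entorhinal sham 3 and hippocampal sham 1. Over all genes, the deviations from the group means correlated at 0.33 for entorhinal sham 3 with hippocampal sham 1, at 0.236 for entorhinal sham 1 with hippocampal sham 2 and at 0.13 for entorhinal sham 2 with hippocampal sham 3. The labels do not state whether such arrays share an animal.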
